A study of Mus musculus with 12 samples.

Results

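This account concerns interferon beta (IFN) against control at day 14 of differentiation in MC3T3-E1 cells, a mouse preosteoblast line derived from calvaria. It compares 4 of the 12 libraries of the study, which are the 2 IFN libraries and the 2 control libraries that the count table names for day 14. All 12 libraries entered the fit and set the spread behind its p-values. All cells carried the line's wild-type genotype and were grown with 10% serum. The IFN group had received mouse IFN beta at 50 mg/L since differentiation began, and the control group had not. Day 0, set at 2 days after confluence, and day 21 were sampled in both arms, also with 2 libraries a group. Exposure of the IFN arm at day 0 is not given in the labels, nor are replicates said to be separate cultures of this single line, so p-values measure the spread between these libraries, which may be technical. The question, going by the study's title and design text, was what type I interferon signalling does in osteoblasts.

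Type I interferons bind a receptor of 2 chains, IFNAR1 and IFNAR2, whose kinases JAK1 and TYK2 phosphorylate STAT2. With IRF9 it acts in the ISGF3 complex, which binds the interferon-stimulated response element (ISRE) in promoters and turns on genes for virus sensing, virus restriction and antigen presentation. In bone, type I interferon is best known for restraining osteoclast formation, while osteoblasts build a matrix of type I collagen that they then mineralize.

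Library totals ran from 29772425 to 38908453 counts over the 12 libraries, and 17289 genes were tested. Values per library are counts scaled to library size (CPM), given as replicate 1 and then replicate 2. The median SD of log2 CPM between replicates was 0.09 in IFN and 0.24 in control at day 14. Of the osteoblast genes, Runx2 had 96.2 and 93.5 CPM with IFN and 78.7 and 126 CPM in control, Alpl 4.22 and 4.09 CPM with IFN against 10.6 and 20.1 CPM in control, and Bglap, the late marker osteocalcin, under 1 CPM in all 4 libraries. Col1a1 had 1083 CPM or more in all 4. The libraries thus carried collagen and early osteoblast genes of the named line and little of its late marker. Of the markers of other cells, Myog, Myf5 and Tnnt1 of skeletal muscle, Epcam of epithelium, Tyrobp and Dcstamp of macrophages and osteoclasts, and Cd79b, Ms4a1, Blk and Cd22 of B cells had 0 counts in all 4 libraries. Other members of these lists were present. Ctsk, a collagen-degrading protease of osteoclasts, had 523 and 512 CPM with IFN and 468 and 309 CPM in control. Lyz2 had 9.51 and 9.61 CPM with IFN and 11.96 and 18.6 CPM in control, Cd14 13.3 and 12.5 against 9.25 and 6.93 CPM, Cd68 5.04 and 4.74 against 11.0 and 4.25 CPM, and Ebf1 19.97 and 21.6 against 10.2 and 21.4 CPM. Krt14 was highest in control replicate 2, at 4.37 CPM. Of the other libraries, control day 21 replicate 2 stood apart, with a median log2 CPM of endoplasmic reticulum stress genes of 10.12, against 6.81 in replicate 1. Control day 0 replicate 1 stood apart too. Its median was 5.65 for fibril-forming collagens, against 7.02 in replicate 2, and 5.83 for cholesterol synthesis genes, against 4.05.

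At day 14, 396 of the 17289 genes passed edgeR's quasi-likelihood test at a Benjamini-Hochberg adjusted p below 0.05 (2.29%). Such genes are referred to as called. IFN was higher in 224 of them (1.3% of genes tested) and lower in 172 (0.995%). The higher genes moved further. Of the 224, 201 differed at least 2-fold, 138 at least 4-fold, 98 at least 8-fold and 57 at least 16-fold, with a median log2 fold change of 2.71. Of the 172 lower genes, 137 differed at least 2-fold, 39 at least 4-fold, 14 at least 8-fold and 4 at least 16-fold, with a median of -1.39. The median over all genes tested was -0.01. In bulk RNA, fewer cells of a type and less RNA per cell cannot be told apart. The 2 IFN libraries lay outside the range of the 2 control libraries for every called gene. Among all genes tested, 28.6% lay above in that way and 27.1% below. The higher set held 200 protein-coding genes, 14 pseudogenes and 5 other noncoding genes, and the lower set 170, 0 and 1, by GENCODE biotype.

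The count of calls depends on the libraries that set the spread and on the tool. DESeq2 called 998 genes, 385 higher and 613 lower, so 38.6% were higher, against 56.6% with edgeR. Among them were 222 of the 224 and 171 of the 172, in the same direction. Leaving out 1 library gave 114 to 1197 calls. There were fewer than with all libraries, by over 1.5 times, when a library of the IFN arm was omitted, with 124 (replicate 1) and 114 (replicate 2) for day 14, 240 and 246 for day 0, and 248 and 243 for day 21. Omitting control day 14 replicate 1 gave 178. Omitting a control library of day 21 gave 1189 (replicate 1) or 1197 (replicate 2). Where a day 14 library is left out, its group is 1 library, assumed to vary like the other groups.

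**Figure D1:**
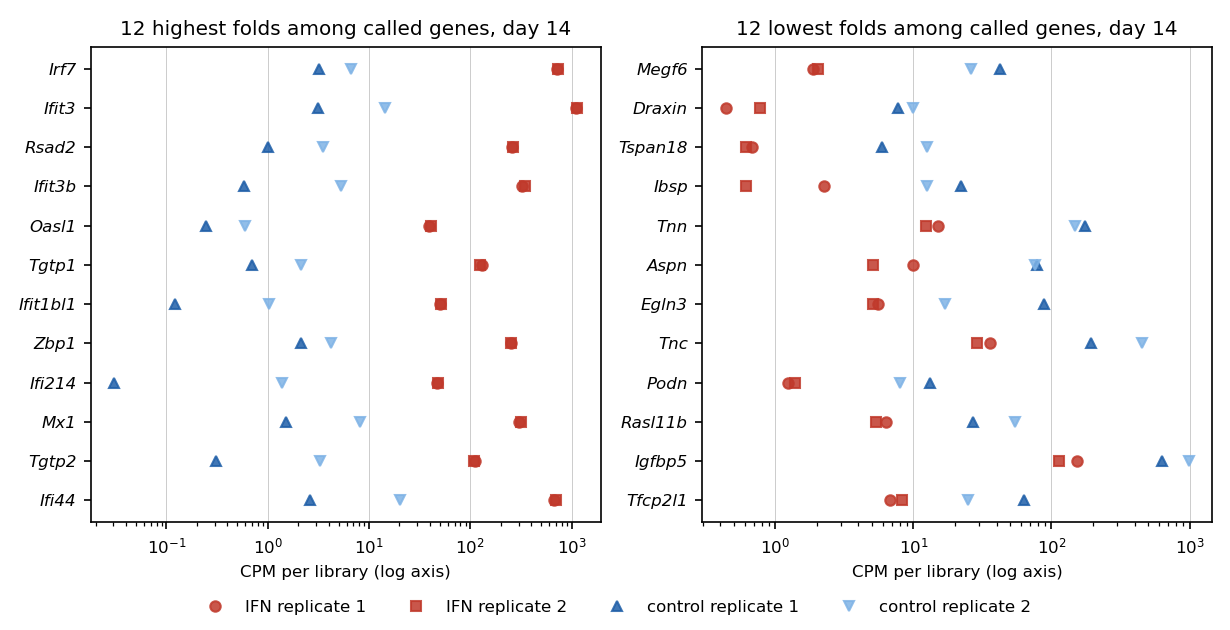
CPM per library on a log axis for the 12 called genes with the highest folds (left) and the 12 with the lowest (right) at day 14, among genes averaging at least 1 log2 CPM. IFN libraries are red and control libraries blue, and in every row both red points lie on one side of both blue points, with Irf7 at 719.9 and 742 CPM against 3.17 and 6.72 CPM and Megf6 at 1.88 and 2.04 CPM against 42.5 and 25.9 CPM.

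The 2 control libraries of day 14 differed in a way that touches the lower genes. Genes that low oxygen induces were high in control replicate 1. Car9, a carbonic anhydrase switched on by hypoxia-inducible factor, had 5.56 and 4.35 CPM with IFN and 164 and 6.81 CPM in control. Ndrg1, another hypoxia-induced gene, had 66.5 and 60.4 CPM with IFN and 1095 and 108 CPM in control. Ankrd37, Higd1a and Ero1l were likewise high in that single library, and for these 3 the groups overlapped. Over the 22 tested genes of the hypoxia list, the median log2 CPM was 5.26 and 5.11 with IFN, and 7.82 and 5.73 in control. Of these 22, 19 were at least 2-fold higher in control replicate 1 than in replicate 2, as were 14 of 18 glycolysis genes and 9.12% of all genes tested. The median log2 fold change of the hypoxia list was -1.58 with all libraries and -0.35 without control replicate 1, and that of the glycolysis list -1.06 and -0.27.

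At an unadjusted p below 0.05, 2389 of all genes tested passed (13.8%), and DESeq2 called 998, which are the background of the counts given in brackets for each list. In the hypoxia list 1 of 22 genes fell with IFN and 0 rose (17 lower and 0 higher at an unadjusted p below 0.05, 12 and 0 with DESeq2), and in the glycolysis list 1 of 18 fell and 0 rose (12 and 0 unadjusted, 6 and 0 with DESeq2). The gene that fell in the first was Egln3, a prolyl hydroxylase that marks hypoxia-inducible factor for destruction. It had 5.50 and 5.06 CPM with IFN and 88.9 and 16.8 CPM in control. In the second it was Pfkfb3, a regulator of glycolytic flux, with 9.78 and 9.93 CPM with IFN and 60.2 and 24.9 CPM in control. Both genes were high in control replicate 1, and both lay below either control library with IFN. Their calls ended without that library (adjusted p = 0.0996 for Egln3 and 0.117 for Pfkfb3) and without either IFN library of day 14 (adjusted p between 0.189 and 0.282). Pfkfb3 was called in 9 of 12 fits that leave out 1 library, and Egln3 in 5.

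A large gap between the control libraries makes a call less likely, so the called genes were in part selected against that split, and their counts do not show how far it reaches. Among the 172 lower genes, control replicate 1 lay above replicate 2 in 96 of them (55.8%), and at least 2-fold above in 11, which were Cdc42ep2, Ctnnal1, Cxxc5, Egln3, Mrgprf, Nacad, Pfkfb3, Podnl1, Tfcp2l1, Wt1 and Zfp395. These 11 are named after their values were seen. Of all genes tested, control replicate 1 lay above replicate 2 in 49.2%, and at least 2-fold above in 9.12%. Measured against control replicate 1 alone the median log2 CPM difference of the 172 was -1.37, with 137 at least 2-fold lower. Against replicate 2 alone it was -1.29, with 121 at least 2-fold lower. Without replicate 1 the number of the 172 still called was 52 (0.334% of all genes in that fit were called lower), and without replicate 2 it was 97. Leaving out a day 14 library also leaves a group of 1, and 17 or 12 of the 172 remained called without IFN replicate 1 or 2. Beside MHC class I and the fibril-forming collagens, lists with 2 or more calls whose count fell by over 1.5 times without control replicate 1 were the GTPases (9 in place of 18), Ifi200 and Schlafen (10 in place of 17), immunoproteasome (1 in place of 3), collagen processing (1 lower in place of 3) and matrix glycoproteins (3 lower in place of 5). The same held for other collagens (2 in place of 4), osteoblast genes (0 in place of 2), chemokines (3 higher in place of 5), and cell death and IGF (1 each in place of 2). What part hypoxia-linked differences have in the lower genes was not tested beyond these counts.

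**Figure D2:**
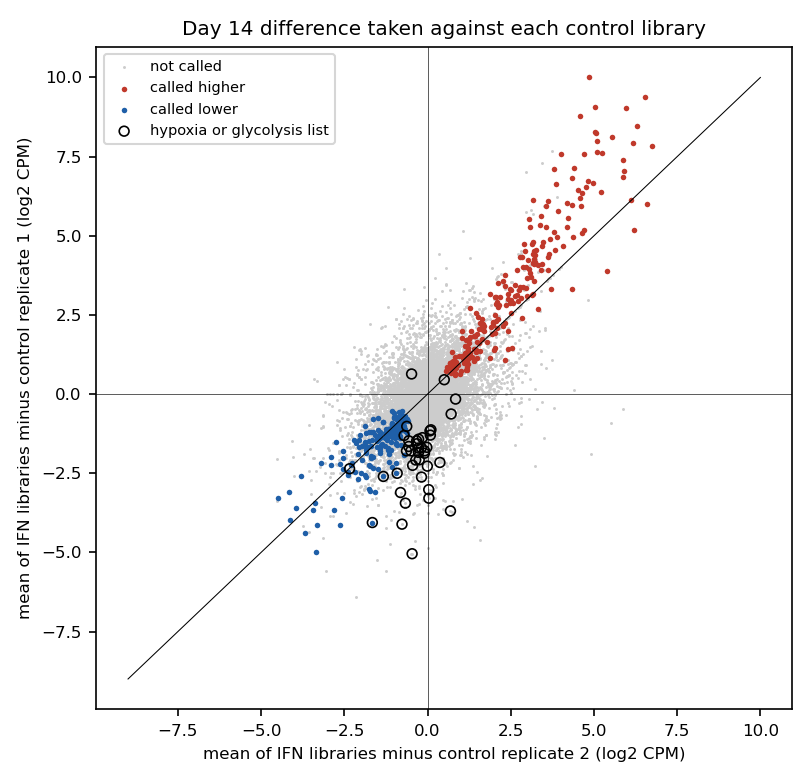
Difference in log2 CPM between the mean of the 2 IFN libraries and control replicate 2 (horizontal) or control replicate 1 (vertical) at day 14, for the 17289 genes tested. The line marks equal differences. Genes called lower (blue) lie along it, with medians of -1.29 and -1.37, the hypoxia and glycolysis genes (open circles) lie mostly below it, and genes called higher (red) lie mostly above it.

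The interferon genes showed the opposite imbalance between the control libraries. Of the 107 tested members of the sensor and effector lists, 98 were lower in control replicate 1 than in replicate 2, and 54 at least 2-fold lower. Of all 17289 genes tested, control replicate 1 lay above replicate 2 in 49.2%, and replicate 2 was at least 2-fold higher in 1198. The median log2 CPM of the 107 at day 14 was 7.42 and 7.32 with IFN, and 2.79 and 4.03 in control. The IFN replicates of day 14 were less than 2-fold apart for all 107. At day 0, control replicate 1 was lower than replicate 2 in 81 of the 107, at least 2-fold in 41. At day 21 it was lower in 44, at least 2-fold in 18, and at least 2-fold higher in 26. Usp18, an ISG15 protease that restrains signalling at the receptor, had 312 and 319 CPM with IFN and 1.59 and 12.1 CPM in control. Oas2, an activator of RNase L, had 788 and 811 CPM with IFN against 3.81 and 59.4 CPM in control, and with that gap between the control libraries its adjusted p was 0.0553.

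Of the 21 tested genes of the receptor, JAK-STAT and IRF list, 7 rose with IFN at day 14 and 0 fell (1 lower at an unadjusted p below 0.05, 0 with DESeq2). Stat2 and Irf9 were among them. Stat2 (chromosome 10, 128270559 to 128292849 in mm10) had 809.8 and 803 CPM with IFN and 45.9 and 90.3 CPM in control, which is 3.57 ± 0.32 on the log2 scale (± SE). Irf9 (chromosome 14, 55603571 to 55610030) had 111 and 110.3 CPM with IFN and 14.4 and 16.8 CPM in control (2.83 ± 0.22). The edgeR adjusted p was 0.000377 for Stat2 and 0.000158 for Irf9, and both stayed called in each of the 12 fits that leave out 1 library.

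The parts of the pathway upstream of ISGF3 did not pass. Jak1 had 242 and 241 CPM with IFN and 305 and 244 CPM in control, and Tyk2 62.0 and 58.7 against 49.7 and 48.3 CPM. Ifnar1 had 72.3 and 63.0 CPM with IFN and 72.4 and 76.0 CPM in control, and Ifnar2 34.6 and 37.9 CPM against 35.1 and 35.2 CPM, with the Ifnar2 groups overlapping. The feedback inhibitor Socs1 had 13.9 and 15.8 CPM against 10.6 and 11.3 CPM (adjusted p = 0.536). Socs3, Ptpn1 and Ptpn2, which also restrain JAK-STAT signalling, did not pass either (adjusted p = 0.954, 0.587 and 0.806). Usp18 rose (5.53 ± 0.79, adjusted p = 0.00443). Over the 21 genes the median log2 fold change was 0.29.

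Sensors of foreign nucleic acid rose in 10 of 14 tested cases and fell in 0 (0 also at an unadjusted p below 0.05 and with DESeq2), with a list median of 1.99. Dhx58, an RNA helicase of the RIG-I family, had 103 and 96.8 CPM with IFN and 2.90 and 3.92 CPM in control. Zbp1, a sensor of Z-form nucleic acid that can start necroptosis, had 254 and 252 CPM with IFN and 2.14 and 4.25 CPM in control (6.31 ± 0.53, adjusted p = 0.000302). Adar, which edits double-stranded RNA and thereby keeps it from being sensed, had 207 and 207 CPM with IFN and 45.5 and 53.1 CPM in control (2.07 ± 0.20). Adar rose least of these 3. Mavs, Myd88, Aim2 and Cgas were the 4 that did not pass.

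Antiviral effectors rose in 23 of 31 tested cases and fell in 0 (1 lower unadjusted, 1 with DESeq2). Their median of 4.64 was above those of all other lists. Ifit3 (chromosome 19, 34583531 to 34588731), which binds viral RNA complexes together with its relatives, had 1119 and 1145 CPM with IFN and 3.11 and 14.4 CPM in control. Rsad2 (chromosome 12, 26442746 to 26456452), viperin, which makes a chain-terminating nucleotide, had 257 and 264 CPM with IFN and 1.01 and 3.52 CPM in control. Mx1, a dynamin-like GTPase that blocks influenza viruses, had 300.1 and 316 CPM with IFN and 1.53 and 8.10 CPM in control. The nearest IFN and control libraries were 77.9-fold apart for Ifit3, 73.0-fold for Rsad2 and 37.0-fold for Mx1, while the IFN replicates of each differed little.

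Further effectors followed the same pattern. Ifit3b had 324 and 344 CPM with IFN and 0.580 and 5.33 CPM in control, and Oasl1 had 38.9 and 40.6 against 0.244 and 0.602 CPM. Ifit1bl1 had 49.8 and 51.2 CPM with IFN and 0.122 and 1.02 CPM in control, and Ifi44 had 674 and 707 against 2.62 and 20.3 CPM. Xaf1, which antagonizes the apoptosis inhibitor XIAP, had 174 and 186 CPM with IFN and 8.88 and 14.7 CPM in control, and Phf11d had 312 and 315 against 3.78 and 12.6 CPM. All 6 were called. Ifi44 lost the call without IFN day 14 replicate 1 or 2 (adjusted p = 0.0548 and 0.062), and Oasl1 without control day 14 replicate 1 (0.0605). The counting may split reads among close copies such as Ifit3 and Ifit3b or the Oas genes, so values within those families are uncertain.

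The promoters of these genes were read in RefSeq's GRCm38.p6 windows from 250 bases before to 50 after each gene's start, for an ISRE core of 10 letters, GAAA and a further GAAA with any 2 bases between them, on either strand. The core was in 41 of 65 called genes that rose at least 8-fold and had a window (63.1%), in 28 of 99 that rose by less (28.3%), and in 0 of 125 that fell. Of the genes tested and not called, 363 of 11349 held it (3.2%), and of all windows 3.44%. The other motifs searched were TTCNNNGAA, the core of the gamma-activated site (GAS), in 15.2% of the genes that rose, 7.2% of those that fell and 8.3% of those not called, and ACGTG, the core bound by hypoxia-inducible factor, in 13.4%, 21.6% and 28.5%. A match describes the letters in the window and is not evidence of binding. The stretches below show the core, in capitals, with its flanks in genes named here, 5′ to 3′ on the gene's strand. They include genes of high fold (Ifit3, Rsad2, Tgtp1 and Tgtp2), the ISGF3 component Stat2, and B2m, which rose least of those shown. Capitals read TTTC where the core lies on the opposite strand, and in Gbp3 mark 2 overlapping cores.
Ifit3, chr19:34583387-34583436, plus strand: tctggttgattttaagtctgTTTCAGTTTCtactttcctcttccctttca
Rsad2, chr12:26456543-26456592, minus strand: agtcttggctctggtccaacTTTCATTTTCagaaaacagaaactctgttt
Cxcl10, chr5:92349073-92349122, minus strand: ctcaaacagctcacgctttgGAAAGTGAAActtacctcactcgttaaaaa
Stat2, chr10:128270256-128270305, plus strand: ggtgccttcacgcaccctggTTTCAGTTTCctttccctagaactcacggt
Gbp3, chr3:142559985-142560034, plus strand: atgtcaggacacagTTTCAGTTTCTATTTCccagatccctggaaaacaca
Igtp, chr11:58199502-58199551, plus strand: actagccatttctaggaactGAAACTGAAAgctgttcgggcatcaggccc
Tgtp1, chr11:48992294-48992343, minus strand: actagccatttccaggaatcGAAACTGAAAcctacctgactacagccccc
Tgtp2, chr11:49064253-49064302, minus strand: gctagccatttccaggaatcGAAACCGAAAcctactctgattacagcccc
Ifi211, chr1:173913054-173913103, minus strand: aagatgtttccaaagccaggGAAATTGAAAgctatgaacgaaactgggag
Ifi214, chr1:173536007-173536056, minus strand: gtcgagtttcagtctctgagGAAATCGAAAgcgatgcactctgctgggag
B2m, chr2:122147528-122147577, plus strand: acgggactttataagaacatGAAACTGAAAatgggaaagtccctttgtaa
The 50 bases of Ifit3 are identical to those of its neighbour Ifit3b. Of the 42 named genes that rose, 35 had a window and 18 of these held the core.

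Interferon-induced GTPases coat vacuoles that hold pathogens, and 18 of 19 tested rose while 0 fell (0 also unadjusted and with DESeq2). Gbp3, a guanylate-binding protein, had 467 and 467 CPM with IFN and 4.58 and 14.8 CPM in control (5.59 ± 0.59). Igtp and Irgm1 are immunity-related GTPases. Igtp had 264 and 259.5 CPM with IFN and 8.64 and 20.5 CPM in control, and Irgm1 had 519 and 539.8 against 30.1 and 58.8 CPM. Tgtp1, a GTPase of the same family, had 131 and 124 CPM with IFN and 0.702 and 2.14 CPM in control, and its copy Tgtp2 had 112 and 109.6 against 0.305 and 3.25 CPM. For each of these genes control replicate 2 was higher than control replicate 1, and both stayed below the IFN libraries. Without control replicate 1, 9 GTPase genes were called higher, against 0.61% of all genes in that fit.

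The Ifi200 genes, which encode DNA-binding proteins of the nucleus and cytosol, and the Schlafen genes rose in 17 of 18 tested cases and fell in 0 (0 also unadjusted and with DESeq2), with a median of 4.48. Mndal had 536 and 542 CPM with IFN and 31.1 and 49.7 CPM in control (3.74 ± 0.23, adjusted p = 4.48e-05). Ifi211 had 235 and 233 CPM with IFN and 23.4 and 17.8 CPM in control. Slfn2 had 400.1 and 394 CPM with IFN and 12.7 and 19.0 CPM in control. These 3 stayed called in all 12 fits that leave out 1 library. Ifi214, at 47.5 and 47.7 CPM with IFN and 0.0305 and 1.39 CPM in control, did so in 5, with adjusted p from 0.00813 to 0.19.

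Many of the genes that rose are neighbours. Taking called genes with gaps of at most 250 kb, 17 runs of at least 3 held 88 of the 219 risen genes with a position (40.2%), and genes that fell formed 0 such runs. On chromosome 1 from 173468485 to 174031810, 12 of the 14 tested genes rose, all of them Ifi200 genes or relatives, by log2 2.98 to 6.06. On chromosome 19 from 34550694 to 34650009, all 6 tested genes rose, namely Ifit1, Ifit1bl1, Ifit1bl2, Ifit2, Ifit3 and Ifit3b. On chromosome 3 from 142493978 to 142638008, the 4 tested genes Gbp2, Gbp3, Gbp5 and Gbp7 rose, and on chromosome 5 from 105077630 to 105346472 5 of 7 rose, namely Gbp4, Gbp6, Gbp9, Gbp10 and Gbp11. On chromosome 7 from 104244457 to 104507849, 6 of 11 rose, namely Trim12a, Trim12c, Trim30a, Trim30c, Trim30d and Trim34a. How often genes not chosen by a call form such runs was not computed. Reads may be split among close copies within these families, so neighbours in a run may not be independent calls. Positions are those of GENCODE release M21 on mm10.

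Genes of ISG15 conjugation, TRIM ubiquitin ligases and PARP enzymes rose in 20 of 25 tested cases and fell in 0 (0 also unadjusted and with DESeq2), with a median of 2.72. Isg15, the ubiquitin-like modifier itself, had 221 and 231 CPM with IFN and 3.51 and 11.1 CPM in control. Trim25, which activates the sensor RIG-I, had 352 and 359.8 CPM with IFN and 60.7 and 62.1 CPM in control. Parp10, an ADP-ribosyltransferase, had 222 and 216 CPM with IFN and 58.1 and 57.5 CPM in control, and the helicase-like Znfx1 had 375 and 389 against 88.4 and 102 CPM. In Trim25 and Parp10 the 2 control libraries were nearly equal, unlike in most effectors. Folds were 5.79 for Trim25, 3.79 for Parp10 and 4.01 for Znfx1.

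Of 20 tested genes of MHC class I and peptide loading, 9 rose and 0 fell (15 higher and 0 lower unadjusted, 11 and 0 with DESeq2). In all 20 both IFN libraries lay above both control libraries, as in 28.6% of all genes tested. The median was 1.55. B2m (chromosome 2, 122147686 to 122153083), the light chain shared by all class I molecules, had 3256 and 3268 CPM with IFN and 1150.1 and 1482 CPM in control, a 2.48-fold difference. H2-T22, a nonclassical heavy chain, had 715 and 735 CPM with IFN and 91.0 and 134 CPM in control. Nlrc5, the transactivator of class I genes, had 128 and 129.6 CPM with IFN and 21.6 and 47.1 CPM in control (1.91 ± 0.34, adjusted p = 0.0164). Tap1 of the peptide transporter had 303 and 316 CPM with IFN and 75.5 and 97.7 CPM in control. The B2m call ended without control replicate 1 (adjusted p = 0.0601), IFN replicate 1 (0.074) or IFN replicate 2 (0.0782), and reads may be shared among H2 genes. Without control replicate 1, 2 genes of the list were called higher in place of 9.

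The proteasome genes split by kind. Of the 5 immunoproteasome genes, which replace subunits of the standard particle to favour class I peptides, 3 rose and 0 fell (5 and 0 unadjusted, 5 and 0 with DESeq2), with a median of 2.00. Psmb8 had 48.2 and 51.4 CPM with IFN and 10.4 and 9.85 CPM in control, Psmb10 45.0 and 41.1 against 5.95 and 10.4 CPM, and the activator subunit Psme1 80.3 and 80.3 against 20.1 and 38.8 CPM. Of the 16 genes of the standard proteasome, 0 rose and 0 fell (3 higher and 0 lower unadjusted, 1 and 0 with DESeq2). Their log2 fold changes ran from 0.16 to 0.55 with a median of 0.34. All 16 had both IFN libraries above both control libraries, as did 28.6% of all genes tested. Psmb10 stayed called in all 12 fits that leave out a library. Psmb8 lost its call without each of the 4 day 14 libraries (adjusted p = 0.104 to 0.163), and Psme1 ran from 0.00708 to 0.212 over the 12 fits.

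**Figure D3:**
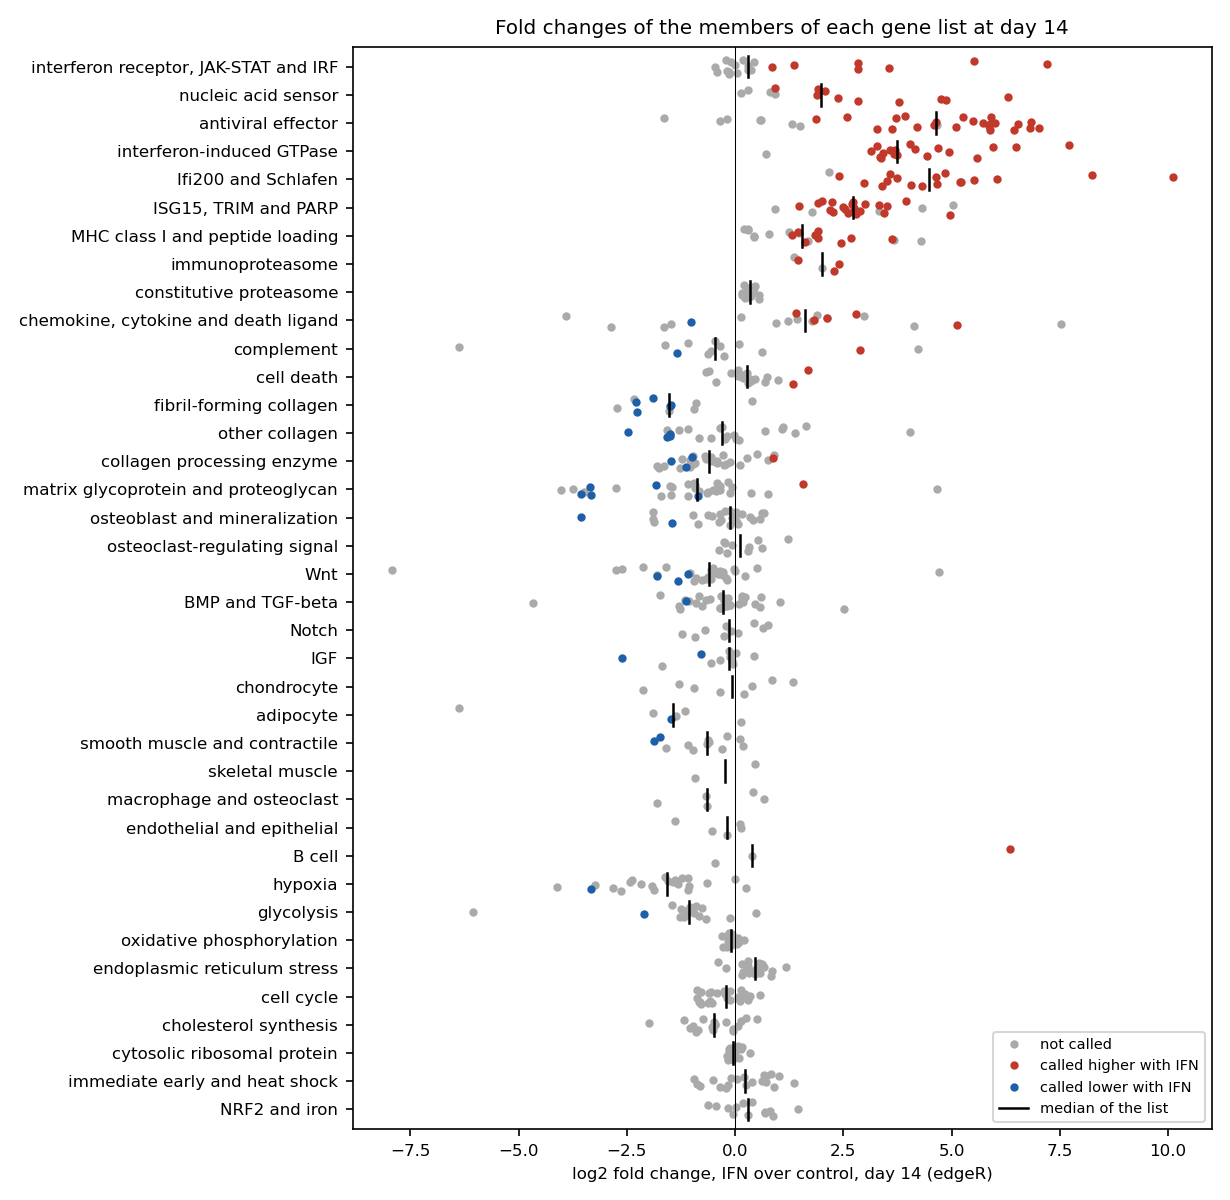
Log2 fold change of IFN over control at day 14 for each tested member of the 38 gene lists, with called genes in red (higher) or blue (lower), other genes in grey and the list median as a black bar. The interferon and antigen presentation lists at the top hold most red points, with medians of 4.64 for antiviral effectors and 1.55 for MHC class I, and the collagen and matrix lists hold most blue points, with a median of -1.52 for fibril-forming collagens.

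Secreted and surface signals were mixed. Of 20 tested chemokines, cytokines and death ligands, 5 rose and 1 fell (11 higher and 3 lower unadjusted, 9 and 3 with DESeq2). Cxcl10, a T cell attractant, had 124 and 132 CPM with IFN and 2.04 and 5.24 CPM in control. Cd274, which encodes the T cell inhibitor PD-L1, had 57.8 and 62.4 CPM with IFN and 5.58 and 11.8 CPM in control (2.78 ± 0.34, adjusted p = 0.00172). Lgals9, galectin 9, had 139.8 and 151 CPM with IFN and 44.7 and 65.0 CPM in control. Il15, a growth factor of natural killer and memory T cells, had 8.28 and 8.73 CPM with IFN and 1.95 and 1.96 CPM in control. Cx3cl1, a membrane-bound chemokine, was the member that fell, with 45.3 and 44.2 CPM with IFN and 94.7 and 87.8 CPM in control. Il15 and Cx3cl1 are named after their values were seen. Cd274 stayed called in all 12 fits that leave out a library, and Lgals9 in 11, with adjusted p = 0.059 without IFN day 14 replicate 2.

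In the complement list 1 of 13 genes rose and 1 fell (2 and 2 unadjusted, 1 and 1 with DESeq2). C4b, the thioester protein of the classical pathway, had 196 and 194 CPM with IFN and 14.5 and 38.5 CPM in control. C1s1, the protease that cleaves it, had 34.7 and 34.8 CPM with IFN and 77.2 and 97.8 CPM in control. The 2 genes thus lay on opposite sides. Of 20 cell death genes, 2 rose and 0 fell (5 and 1 unadjusted, 3 and 0 with DESeq2). Mlkl, the executor of necroptosis, had 110.2 and 115 CPM with IFN and 40.9 and 48.1 CPM in control, and Daxx, a histone chaperone of nuclear bodies, had 148 and 148 against 44.6 and 47.4 CPM. Daxx stayed called in all 12 fits that leave out a library. C4b and Mlkl lost the call without control replicate 1, IFN replicate 1 or IFN replicate 2 of day 14 (adjusted p = 0.101 to 0.148), and C1s1 without control replicate 2 (0.0773), IFN replicate 1 (0.181) or IFN replicate 2 (0.194).

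Of the 3 tested B cell markers, 1 rose and 0 fell (1 and 0 also unadjusted and with DESeq2). The gene that rose was Pax5, the factor that commits cells to the B lineage. It had 7.11 and 5.94 CPM with IFN and 0.122 and 0.0301 CPM in control, and 8.63 and 13.7 against 0.0583 and 0.148 CPM at day 21. At day 0 it had 0.574 and 0.498 CPM in the IFN arm and 0.616 and 0.705 CPM in control. Its log2 fold change at day 14 was 6.36 ± 0.58 (adjusted p = 0.000387), and it stayed called in all 12 fits that leave out 1 library. The control libraries at days 14 and 21 thus lay below those of day 0, and the IFN libraries above them. The summed level of the 8 listed B cell genes was 27.3 and 28.1 CPM with IFN and 10.6 and 21.7 CPM in control. Most of it was Ebf1 (19.97 and 21.6 CPM with IFN, 10.2 and 21.4 CPM in control). Cd79b, Ms4a1, Blk and Cd22 had 0 counts in all 4 libraries.

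Among the genes that fell, 4 named ones kept their call in each of the 12 fits that leave out 1 library. Tnn (chromosome 1, 160085029 to 160153580), tenascin W, a matrix protein of bone-forming zones, had 15.1 and 12.4 CPM with IFN and 175 and 149 CPM in control (-3.55 ± 0.33, adjusted p = 0.000387). Tnc (chromosome 4, 63959785 to 64047015), tenascin C, had 35.7 and 28.8 CPM with IFN and 193 and 451 CPM in control (-3.32 ± 0.39, adjusted p = 0.00158). Adamts9 (chromosome 6, 92772699 to 92943492), a secreted protease that cleaves proteoglycans, had 8.36 and 7.24 CPM with IFN and 31.3 and 58.2 CPM in control (-2.52 ± 0.31, adjusted p = 0.00198). Lmod1 (chromosome 1, 135324807 to 135368065), an actin filament nucleator of smooth muscle, had 9.02 and 8.89 CPM with IFN and 26.4 and 39.6 CPM in control (-1.88 ± 0.23, adjusted p = 0.00169). Control replicate 2 was the higher of the control libraries for Tnc, Adamts9 and Lmod1, and replicate 1 for Tnn.

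Among called genes averaging at least 1 log2 CPM over the day 14 libraries, the 3 lowest folds were those of Megf6, Draxin and Tspan18. Megf6, a protein with epidermal growth factor repeats, had 1.88 and 2.04 CPM with IFN and 42.5 and 25.9 CPM in control. Draxin, a secreted Wnt inhibitor first known from axon guidance, had 0.436 and 0.779 CPM with IFN and 7.72 and 9.91 CPM in control. Tspan18, a tetraspanin, had 0.681 and 0.617 CPM with IFN and 5.95 and 12.6 CPM in control. For all 3 the groups were 8.74-fold apart or more at their nearest libraries. Each stayed called in 10 of the 12 fits, the exceptions being without IFN day 14 replicate 1 or 2 (adjusted p = 0.0657 to 0.155).

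A further 4 genes were among the 12 lowest folds of called genes averaging at least 1 log2 CPM. Podn, podocan, a small leucine-rich proteoglycan, had 1.23 and 1.40 CPM with IFN and 13.2 and 7.98 CPM in control. Aspn, asporin, of the same class, had 10.0 and 5.13 CPM with IFN and 77.9 and 75.6 CPM in control. Rasl11b, a small GTPase, had 6.35 and 5.39 CPM with IFN and 26.9 and 54.5 CPM in control. Tfcp2l1, a transcription factor of the grainyhead family, had 6.73 and 8.24 CPM with IFN and 63.0 and 24.6 CPM in control. Their calls were lost in some fits that leave out 1 library. Aspn remained called in 2 of 12 fits (adjusted p from 0.0217 to 0.496), Tfcp2l1 in 5 (from 0.0129 to 0.326), and Podn and Rasl11b in 9 (from 0.00301 to 0.194 and from 0.000609 to 0.27). Plekhg4, a guanine nucleotide exchange factor, was among the 10 lowest genes called both with and without control replicate 1, with 3.95 and 2.63 CPM with IFN and 18.1 and 17.2 CPM in control, and lost its call without IFN replicate 2 (0.115).

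Of 11 collagens that form fibrils, 5 fell and 0 rose (10 and 0 unadjusted, 8 and 0 with DESeq2), with a median of -1.52. Both IFN libraries lay below both control libraries in 10 of the 11, and in 27.1% of all genes tested. Col1a1 had 1089 and 1083 CPM with IFN and 6610.1 and 3894 CPM in control, and its partner chain Col1a2 had 3635 and 3473 against 11654 and 8784 CPM, which missed the threshold (adjusted p = 0.0501). Type V chains help set the width of collagen fibrils, and 2 of the 3 fell. Col5a1 had 380.0 and 389 CPM with IFN and 1318 and 875 CPM in control, and Col5a2 had 285 and 282 against 889.7 and 692 CPM. The third, Col5a3, had 32.1 and 29.6 CPM with IFN and 66.5 and 48.9 CPM in control (adjusted p = 0.249). Col11a1 had 27.2 and 25.2 CPM with IFN and 149 and 105 CPM in control. Col3a1, at 189.8 and 189 CPM with IFN and 1635 and 874 CPM in control, did not pass (adjusted p = 0.0732). Control replicate 1 was the higher control library for Col1a1, Col1a2, Col3a1, Col5a1, Col5a2 and Col11a1, and for 9 of the 11. Without that library 2 of the list were called lower in place of 5.

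Other collagens fell in 4 of 23 tested cases and rose in 0 (9 lower and 2 higher unadjusted, 6 and 1 with DESeq2), with a median of -0.30. Col12a1, which sits on the surface of type I fibrils, had 626 and 544 CPM with IFN and 3398 and 3053 CPM in control. Col6a1, of the microfibrils around cells, had 542 and 484 CPM with IFN and 1414 and 1646 CPM in control, and Col6a2 had 357 and 312 against 757 and 1140.0 CPM. Col8a1, named after its value was seen, had 46.6 and 42.8 CPM with IFN and 125 and 129 CPM in control. Of the collagens named, Col5a2 and Col12a1 kept the call in 10 of 12 fits, losing it without either IFN library of day 14 (adjusted p = 0.0582 to 0.0842). Col1a1, Col5a1 and Col11a1 lost it also without control replicate 1 (adjusted p = 0.136, 0.135 and 0.068), Col6a2 without control replicate 2 (0.0948), and Col6a1 without any of the 4 (0.0536 to 0.209).

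Of 30 enzymes and partners that process collagen, 3 fell and 1 rose (19 lower and 2 higher unadjusted, 10 and 1 with DESeq2). P4ha3, a subunit of prolyl hydroxylase, had 43.8 and 36.1 CPM with IFN and 73.5 and 101 CPM in control. Pcolce2, an enhancer of procollagen cleavage, had 4.44 and 4.06 CPM with IFN and 11.7 and 12.1 CPM in control. Mmp2, the gelatinase A that degrades collagen and named after its value was seen, also fell, with 617 and 607 CPM with IFN and 1158 and 1297 CPM in control. Loxl3, a lysyl oxidase that crosslinks collagen, rose to 239.9 and 243 CPM with IFN, against 118 and 143 CPM in control. The median of the list was -0.61 with all libraries and -0.35 without control replicate 1. Loxl3 kept its call in 4 of 12 fits (adjusted p from 0.00297 to 0.324), P4ha3 in 5 (from 0.0046 to 0.341) and Pcolce2 in 9 (from 0.00325 to 0.197).

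Matrix glycoproteins and proteoglycans fell in 5 of 34 tested cases and rose in 1, with a median of -0.88. The 5 were Tnn, Tnc, Aspn, Sparc and Smoc1. Of the list, 17 were lower and 1 higher unadjusted, and 15 and 1 with DESeq2. Sparc had 1154 and 1176 CPM with IFN and 1932 and 2261 CPM in control, a 1.80-fold difference. Ccn2, connective tissue growth factor, named after its value was seen, was the member that rose, with 413 and 482 CPM with IFN and 214 and 89.3 CPM in control. The abundant matrix gene Fn1, fibronectin, had 7473 and 7225 CPM with IFN and 15853 and 15353 CPM in control and just missed the threshold (adjusted p = 0.0536). Postn, periostin, had 2184 and 2096 CPM with IFN and 4139 and 7827 CPM in control (adjusted p = 0.0727). Sparc kept its call in 4 of 12 fits (adjusted p from 0.00262 to 0.319).

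Of 27 tested osteoblast and mineralization genes, 2 fell and 0 rose (5 and 1 unadjusted, 4 and 1 with DESeq2), with a median of -0.12. Ibsp, bone sialoprotein, had 2.26 and 0.617 CPM with IFN and 22 and 12.5 CPM in control, and Dlx5, a homeobox factor of osteoblasts, had 8.15 and 9.54 against 21.9 and 26.2 CPM. Sp7, osterix, which acts downstream of Runx2, had 11.3 and 13.2 CPM with IFN and 16.2 and 28.4 CPM in control (adjusted p = 0.308). The Runx2 groups overlapped. Sox9, the gene in the study's title and a factor of chondrocytes, had 190.0 and 181 CPM with IFN and 175 and 144 CPM in control, a log2 difference of 0.22 ± 0.22 with adjusted p = 0.741. Ibsp lost its call without control replicate 1 (0.117) or IFN replicate 2 (0.148) of day 14, and Dlx5 kept it in 4 of 12 fits (adjusted p from 0.00391 to 0.332).

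Of 33 Wnt pathway genes, 3 fell and 0 rose (14 and 0 unadjusted, 7 and 0 with DESeq2), with a median of -0.60. Lrp5, the Wnt co-receptor whose loss lowers bone mass, had 198 and 172 CPM with IFN and 526 and 399 CPM in control (-1.32 ± 0.20, adjusted p = 0.00514). Axin2, a negative regulator that Wnt signalling itself induces, had 3.19 and 3.57 CPM with IFN and 9.31 and 14.2 CPM in control. Tcf7l1, a DNA-binding partner of beta-catenin, had 23.8 and 22 CPM with IFN and 48.5 and 49.2 CPM in control. The 3 genes act at the receptor, in the destruction complex and in the nucleus. Lrp5 lost its call without IFN day 14 replicate 1 or 2 (adjusted p = 0.0514 and 0.111). Axin2 and Tcf7l1 did so too (0.105 to 0.236), and also without control replicate 2 for Axin2 (0.0872) and control replicate 1 for Tcf7l1 (0.0527).

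In the BMP and TGF-beta list 1 of 32 genes fell and 0 rose (13 and 2 unadjusted, 5 and 0 with DESeq2). It was Fst, follistatin, which binds activin, with 41.8 and 44.2 CPM with IFN and 79.0 and 109.9 CPM in control. Of 11 genes of insulin-like growth factor signalling, 2 fell and 0 rose (4 and 0 unadjusted, 2 and 0 with DESeq2). Igfbp5, an IGF-binding protein of bone matrix, had 152 and 114 CPM with IFN and 629 and 988 CPM in control, a 6.08-fold difference. Irs1, the docking protein of the insulin and IGF receptors, had 77.2 and 75.4 CPM with IFN and 130.3 and 135 CPM in control. Fst and Irs1 kept the call in 4 of 12 fits (adjusted p from 0.00999 to 0.341 and from 0.00382 to 0.316), and Igfbp5 in 9 (from 0.00508 to 0.252).

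Lists of other cell types gave few calls. Of 12 smooth muscle and contractile genes, Lmod1 and Smtn fell and 0 rose (4 and 0 unadjusted, 2 and 0 with DESeq2). Smtn, smoothelin, had 65.1 and 60.0 CPM with IFN and 275 and 139 CPM in control, with adjusted p = 0.0787 and 0.112 when IFN day 14 replicate 1 or 2 was left out. The summed level of the 13 listed contractile genes was 2117 and 2170.3 CPM with IFN and 2748 and 3311 CPM in control. Of 6 adipocyte genes, Fabp4, a fatty acid carrier, fell and 0 rose (4 and 0 unadjusted, 2 and 0 with DESeq2), with 7.98 and 6.88 CPM with IFN and 24.5 and 17.0 CPM in control and a call kept in 6 of 12 fits (adjusted p from 0.011 to 0.363). The 12 listed adipocyte genes summed to 41.4 and 39.5 CPM with IFN and 108.8 and 65.6 CPM in control, and those of chondrocytes to 221 and 209 CPM with IFN and 211 and 178 CPM in control. Macrophage and osteoclast genes summed to 552 and 539 CPM with IFN and 501 and 339 CPM in control, with Tyrobp and Dcstamp at 0. Most of this sum was Ctsk (523 and 512 CPM with IFN, 468 and 309 CPM in control). Most of the chondrocyte sum was Sox9 (190.0 and 181 against 175 and 144 CPM). These sums thus say little of the other members. In the chondrocyte list 0 of 8 tested genes were called (3 lower and 0 higher unadjusted, 1 and 0 with DESeq2). The part of other cells in the results was not tested.

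Several pathways gave no call by edgeR. Oxidative phosphorylation (24 tested) and cytosolic ribosomal proteins (25) had 0 genes at an unadjusted p below 0.05 and 0 with DESeq2, with medians of -0.09 and -0.06. Endoplasmic reticulum stress (20) likewise had 0 by both, with a median of 0.47. In 18 of the 20 both IFN libraries lay above both control libraries, as in 28.6% of all genes tested. Cell cycle genes (28) had 1 lower unadjusted and 1 with DESeq2, with a median of -0.21, and cholesterol synthesis genes (19) had 3 and 1. Notch genes (10) had 1 higher and 2 lower unadjusted and 2 lower with DESeq2, and signals that regulate osteoclasts (10) had 1 higher unadjusted and 0 with DESeq2. Immediate early and heat shock genes (20) had 1 lower unadjusted and 0 with DESeq2, and NRF2 and iron genes (13) had 1 higher by both. In control day 21 replicate 2 the median log2 CPM of endoplasmic reticulum stress genes was 10.12 (6.81 in replicate 1). It was 8.87 (6.29) for immediate early and heat shock genes and 10.19 (8.01) for NRF2 and iron genes. That library also set the spread, so a lack of calls in these lists does not show a lack of difference at day 14.

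**Figure D4:**
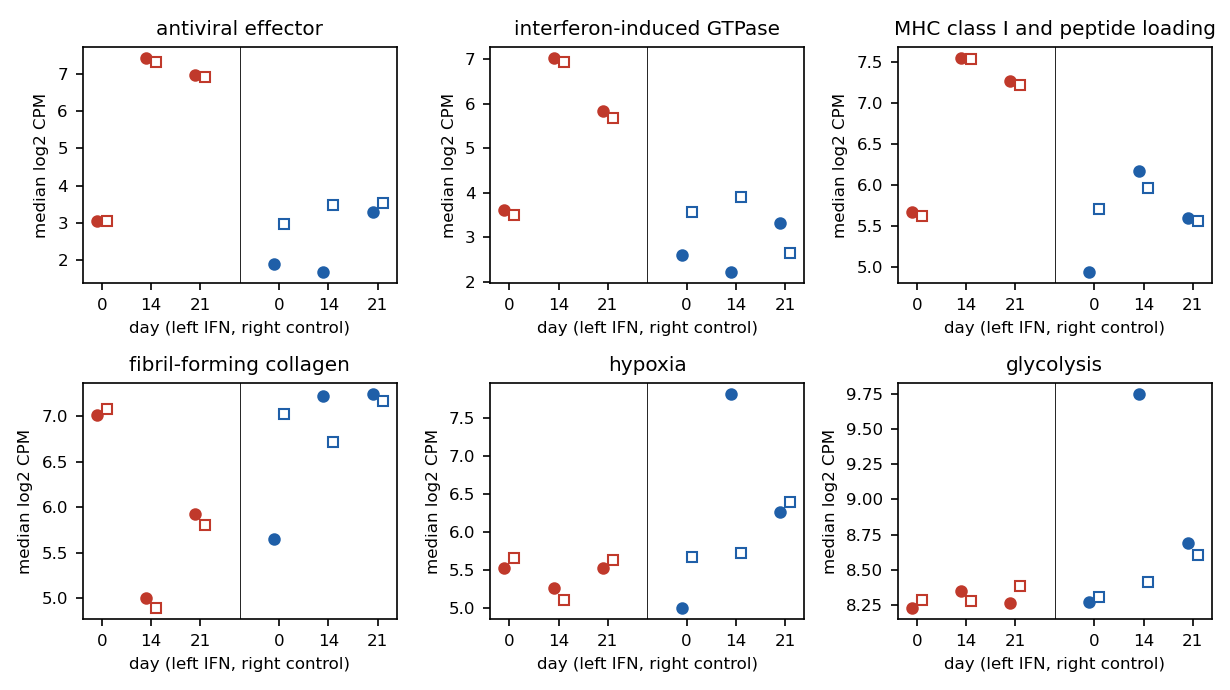
Median log2 CPM of the tested members of 6 gene lists in each library, by day, with IFN left of control in each panel, filled circles for replicate 1 and open squares for replicate 2. The antiviral list stood at 7.44 and 7.32 with IFN at day 14 against 1.67 and 3.49 in control, and the hypoxia list was highest in control day 14 replicate 1, at 7.82.

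The same contrast at day 21 compares other libraries, which share the fit and its estimate of the spread with day 14. There 172 genes were called (0.995%), of which 145 were higher with IFN (0.839%) and 27 lower (0.156%). Of the 224 genes higher at day 14, 218 had the same sign at day 21, 123 were called again (54.9%) and 0 were called in the opposite direction. Of the 172 lower genes, 158 had the same sign and 15 were called again (8.72%), with 0 opposite. Of all 17289 genes tested, 9982 had the same sign on both days. At day 21, 171 of them (0.989%) were called with the sign of day 14 and 1 with the opposite sign. Median log2 fold changes were 2.71 at day 14 and 2.11 at day 21 for the higher genes, and -1.39 at day 14 and -0.58 at day 21 for the lower genes. These genes were selected by their day 14 values, so the medians do not compare like with like. No gene passed the test of the change between the days by edgeR (1315 at an unadjusted p below 0.05, 7.61% of genes, and 31 with DESeq2), so a smaller effect at day 21 is not shown for any single gene by edgeR. The day 21 count was 635 with DESeq2 and ran from 60 without IFN day 21 replicate 2 to 3865 without control day 21 replicate 1.

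At day 0 the medians of these same genes were 0.23 and 0.11. The sign of day 14 was shared at day 0 by 156 of the 224, 54 of the 172 and 7905 of all 17289 genes tested. At day 0, 1 gene was called lower and 0 higher (0.00578% and 0% of genes tested, with 381 at an unadjusted p below 0.05 and 1 with DESeq2). That gene was Bpifc, named after its values were seen, with 0 and 0 CPM in the IFN arm and 0.985 and 0.831 CPM in control. It is not among the genes called at day 14.

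The lower genes differed in how each arm stood against its own day 0. Of the 172, 80 were at least 2-fold lower at day 14 than at day 0 in the IFN arm and not 2-fold higher in control. In control 39 were at least 2-fold higher at day 14 than at day 0, and not 2-fold lower in the IFN arm. A further 6 did both and 47 neither. A gene that moved at least 2-fold the same way in both arms is counted with the 80 or the 39. Of all 17289 genes tested, the same counts were 1833, 1445, 87 and 13924, and the 172 were chosen for being lower at day 14. The median log2 change since day 0 was -1.01 in the IFN arm and 0.26 in control. Col5a2 is an example of the first kind, with 949.7 and 986 CPM at day 0 and 285 and 282 CPM at day 14 in the IFN arm, and 659 and 970.0 CPM at day 0 and 889.7 and 692 CPM at day 14 in control. Tnn is one of the second, with 2.15 and 2.66 CPM at day 0 and 15.1 and 12.4 CPM at day 14 in the IFN arm, and 1.42 and 1.96 CPM at day 0 and 175 and 149 CPM at day 14 in control. Lrp5 and Tnc stayed near their day 0 level in the IFN arm. Tnc had 34.1 and 36.1 CPM at day 0 and 35.7 and 28.8 CPM at day 14 in the IFN arm, and 23.1 and 37.3 CPM at day 0 and 193 and 451 CPM at day 14 in control. The IFN arm had 151 and 166 CPM at day 0 and 198 and 172 CPM at day 14 for Lrp5, while control Lrp5 had 130.1 and 167 CPM at day 0 and 526 and 399 CPM at day 14. These are descriptions of group means and were given no test of their own. The control mean at day 0 includes replicate 1, which stood apart. Its median log2 CPM was 5.65 for fibril-forming collagens and 6.47 for matrix glycoproteins and proteoglycans, against 7.02 and 7.23 in replicate 2. A low day 0 value makes the rise in control look larger, and how far it shaped these counts was not tested.

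In the fibril-forming list 3 collagens were called lower at day 21, and in the list of other collagens 0 were. Col1a1 was at -2.65 ± 0.43 (log2 fold change, adjusted p = 0.0157). Col5a2 was at -1.62 ± 0.22 (adjusted p = 0.00523), Col5a1 -1.64 ± 0.28 (0.02) and Tnn -4.28 ± 0.34 (0.000351). Col11a1 (0.0555), Col12a1 (0.135), Col6a1 (0.137) and Col6a2 (0.134) did not pass there. Lrp5 stood at -0.07 ± 0.19 (0.922), Tcf7l1 at -0.05 ± 0.18 (0.941) and Igfbp5 at -0.36 ± 0.45 (0.778). Igfbp5 had 203 and 169 CPM with IFN and 317 and 159.6 CPM in control at day 21. The change of the effect between the days did not pass for any of these genes (adjusted p = 0.652 for Lrp5).

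**Figure D5:**
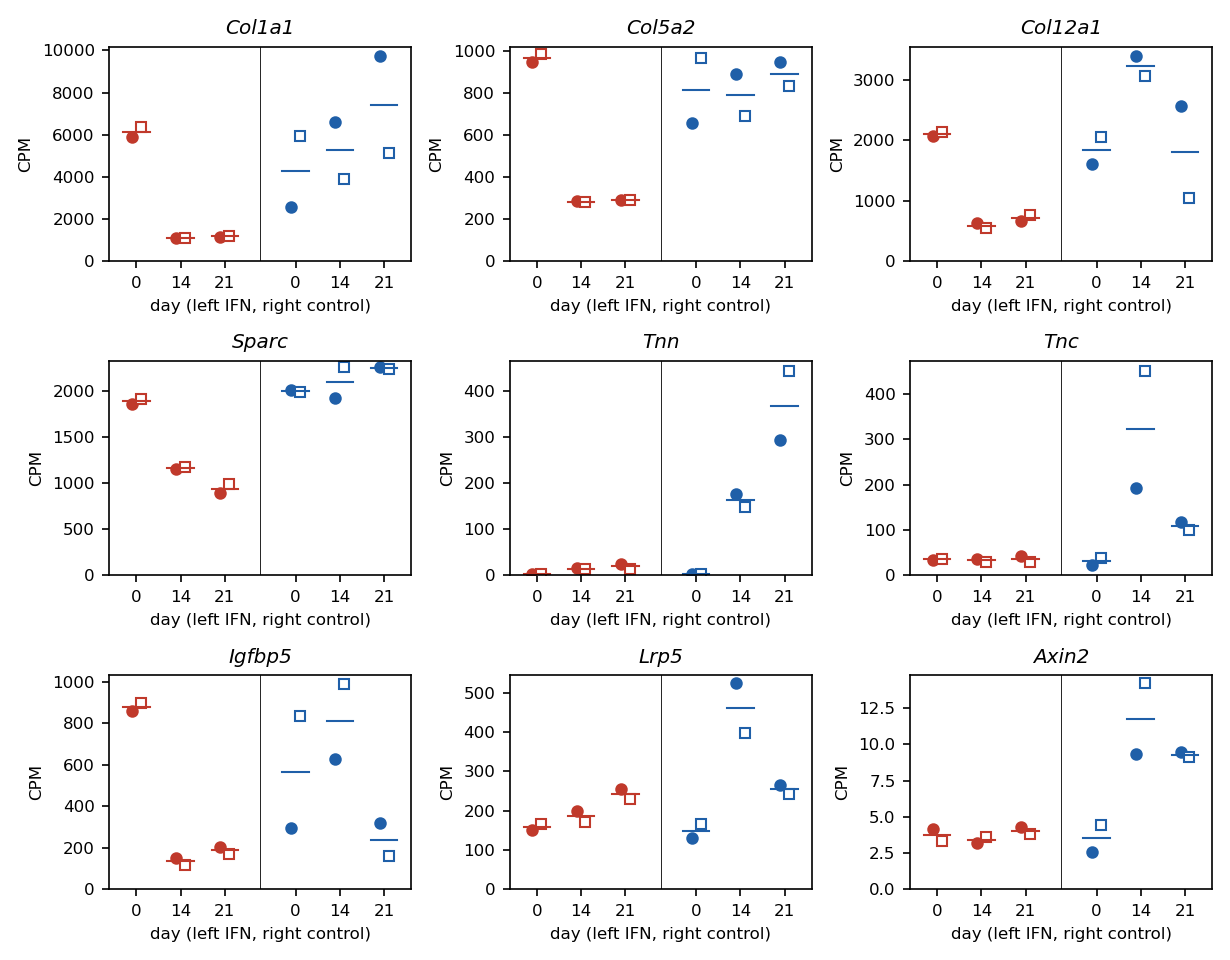
CPM by day for 9 genes that fell at day 14, with IFN left of control in each panel, filled circles for replicate 1, open squares for replicate 2 and lines at the mean of the 2 libraries. Col1a1, Col5a2, Col12a1, Sparc and Igfbp5 are lower at day 14 than at day 0 in the IFN arm, while Tnn, Tnc, Lrp5 and Axin2 are higher at day 14 than at day 0 in control.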

How the data were processed

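RNA of MC3T3-E1 cells was sequenced in 12 libraries, 2 for each of 6 groups. The authors deposited raw counts per gene symbol. The submitters' processing notes name HISAT2 (an aligner), featureCounts (a read counter), SAMtools and the mm10 build. Versions, annotation and strand setting are not given in the sources used here. Counts were tested as deposited with edgeR 4.0.16 in R 4.3.3 (TMM scaling, filterByExpr, robust quasi-likelihood test, all 12 libraries in 1 fit with 6 residual degrees of freedom, Benjamini-Hochberg adjusted p below 0.05), with DESeq2 1.42.0 as an alternative. List medians per library are of log2 CPM with a prior count of 2. The scripts were run on simulated counts with a common mean per gene in all groups, apart from changes put into some genes of the IFN day 14 group. No simulated library stood apart, so that run says nothing of how the calls depend on such libraries. Positions come from GENCODE M21, which matched 53292 of 55291 symbols (16911 of 17289 tested), and promoter windows from RefSeq GRCm38.p6, which covered 11638 tested genes.

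Genes are named by rule: 13 markers of the pathway and of osteoblasts, the 12 highest and 12 lowest called genes, the 10 lowest called also without control day 14 replicate 1, up to 3 called members of each of 38 lists by smallest adjusted p, and the 5 hypoxia genes that differ most between the control libraries. Members, lists and rules were chosen with earlier results of these data known. Jak1, Tyk2, Socs1, Usp18, Socs3, Ptpn1, Ptpn2, Oas2, Isg15, Nlrc5, Col3a1, Col5a3, Fn1, Postn, Smoc1, the 4 sensors that did not pass, and members of genomic runs were named after their values were seen. Alternatives changed the scaling, tool, filter, libraries and replicate block. A gene that the rule names is not reported here.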

Additional observations from a re-analysis of the deposited data

Results flagged for a closer look

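Sp7, which encodes the osteoblast factor osterix, had IFN effects of opposite sign on the 2 days, with no overlap of the groups on either. At day 14 it had 11.3 and 13.2 CPM with IFN and 16.2 and 28.4 CPM in control (log2 -0.86). At day 21 it had 17.9 and 17.3 CPM with IFN and 15.7 and 8.85 CPM in control (log2 0.514). The effect passed on neither day (adjusted p = 0.308 and 0.574 by edgeR). The test of the change between the days gave an adjusted p of 0.652, so a difference between the days is not shown.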

How the results depend on the processing

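The median log2 fold change of all genes was -0.02 under RLE scaling and 0.03 by library size alone. Of the 396 calls at day 14 (224 higher and 172 lower, 56.6% higher), DESeq2 gave 998 (385 and 613, 38.6%), no filter on low counts 1175 (443 and 732, 37.7%) and a fit of only the groups compared 657 (321 and 336). For day 21 these settings gave 635, 1039 and 25, for day 0 1, 88 and 0, and for the change between the days 31 and 386, the last setting giving none. Leaving out 1 library gave 114 to 1197 calls at day 14 (102 to 533 higher, 12 to 676 lower), 60 to 3865 at day 21, 0 to 50 at day 0 and 0 to 2584 for the change. The share of higher calls at day 14 was 85.5% or 89.5% when an IFN library of day 14 was omitted, and 39.8% when control day 14 replicate 2 was. A further 2 fits were chosen after seeing the data. With replicate 1 of control day 0 and replicate 2 of control day 21 both omitted there were 2751 calls at day 14 (1259 and 1492), 868 at day 21, 0 at day 0 and 96 for the change. With control day 14 replicate 1 omitted as well there were 5159 (2471 and 2688), 4494, 2 and 2959. In that last fit each control group is 1 library and the spread comes from IFN libraries alone. The cause of these shifts was not tested.

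Same-numbered libraries showed little shared deviation (r = 0.01 between IFN and control at day 14, -0.05 to 0.11 over all pairs of groups). Whether equal numbers mark samples handled together is not given in the labels. A low correlation cannot decide it, since samples handled together need not deviate together. With the replicate number as a block, 331 genes were called at day 14 (200 higher and 131 lower) and 0 at day 0.

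Log2 fold changes that turned sign were not called. Without control day 14 replicate 1, and also with the other 2 control libraries left out, Ankrd37 was at 0.7308 and 0.7245, Higd1a at 0.04532 and 0.03974, and Ero1l at 0.03725 and 0.02972. Ifnar2 was at -0.03765 without IFN day 14 replicate 2, and Runx2 at 0.2724 without control day 14 replicate 2. Over the fits that leave out 1 library, the values ran from -3.743 to 0.7308 for Ankrd37, -3.284 to 0.04532 for Higd1a, -3.014 to 0.03725 for Ero1l, -0.03765 to 0.08824 for Ifnar2 and -0.4143 to 0.2724 for Runx2.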

Other observations

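Of the called genes, 106 of 224 higher and 140 of 172 lower were in none of the 38 lists. The following are examples chosen after their values were seen. Whether their calls hold in the fits that leave out 1 library is not given here, unlike for most genes named above. Among the higher genes, Ly6e, a surface protein known to affect virus entry, had 1941 and 1971 CPM with IFN and 239 and 282 CPM in control (2.91 ± 0.25 on the log2 scale, adjusted p = 0.000333 by edgeR). Mpeg1, a pore-forming protein of phagocytes, had 12.2 and 14.2 CPM with IFN and 0.305 and 0.452 CPM in control. Batf2, a transcription factor, had 7.22 and 7.95 CPM with IFN and 0.214 and 0.783 CPM in control. Axl, a receptor kinase that dampens interferon responses, rose to 807 and 829.8 CPM with IFN, against 337 and 369.8 CPM in control, while its ligand Gas6 fell to 443 and 423 CPM with IFN, against 870.2 and 1602 CPM in control. Il18bp, a decoy for interleukin 18, had 17.2 and 17.2 CPM with IFN and 3.66 and 5.39 CPM in control, and the interleukin 33 receptor gene Il1rl1 had 397 and 365 against 95.2 and 70.7 CPM.

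Among the lower genes, Prrx1, a homeobox factor of limb mesenchyme, had 283 and 272 CPM with IFN and 466 and 559 CPM in control. Cd248, a surface protein of stromal cells, had 18 and 18.3 CPM with IFN and 87.8 and 59.8 CPM in control (-2.02 ± 0.29, adjusted p = 0.00448). Gas1, a hedgehog co-receptor, had 92.0 and 66.7 CPM with IFN and 354 and 375 CPM in control. Adamts1, a relative of Adamts9, had 102 and 92.3 CPM with IFN and 455 and 475 CPM in control. Grb10 and Grb14 are adaptors that bind the insulin receptor. Grb10 had 176 and 172 CPM with IFN and 429 and 380.3 CPM in control, and Grb14 had 3.62 and 3.51 against 12.7 and 21.2 CPM. The mitochondrial enzymes Idh2, Pcx and Oxct1 fell too, Idh2 with 64.2 and 67.3 CPM with IFN and 179 and 154 CPM in control. Hif1a, the oxygen-regulated subunit of hypoxia-inducible factor, had 203 and 188 CPM with IFN and 371 and 351 CPM in control (-0.89 ± 0.20, adjusted p = 0.0446), with the 2 control libraries close together.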
